A study of Mus musculus with 4 samples.

Results

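The genes described here are 10 members of the insulin-like growth factor (IGF) family: the ligands Igf1 and Igf2, the receptors Igf1r and Igf2r, and the binding proteins Igfbp2, Igfbp3, Igfbp4, Igfbp5, Igfbp6 and Igfbp7. They were taken by symbol from the 32285 genes of the deposited matrices, and all 10 were found. Levels were followed across marker-gated stromal, bone, endothelial and blood cells of the limb marrow in 4 droplet 3′ single-cell libraries. The cells came from C57BL/6 mice labelled as postnatal day 12, sorted as live cells without CD45 or Ter119 on their surface. The 2 control libraries carry the genotype label control, with no alleles given. Mutant 1 is labelled Prx1-cre;Mettl3-fl/fl, and mutant 2 only mutant. Prx1-cre is active in limb mesenchyme and not in endothelium or blood, and Mettl3 is the enzyme that methylates RNA at the N6 position of adenosine. The labels speak of 3 mice per genotype and do not say how mice map to libraries. The p-values therefore rest on the spread between libraries, which may be technical and is pooled largely over genes.

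IGF1 and IGF2 are secreted growth factors that act through the receptor tyrosine kinase IGF1R, which signals through insulin receptor substrates, PI3 kinase and AKT. IGF2R, also the cation-independent mannose 6-phosphate receptor, takes up IGF2 for breakdown and sorts lysosomal enzymes. The binding proteins hold IGFs outside cells and are cut by proteases such as pappalysin, so that they can either restrain or deliver the ligand; IGFBP7 binds IGFs weakly. In bone, IGF1 is made locally as well as reaching the tissue from the liver, and IGFBP5 is stored in mineralized matrix.

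After filtering, the libraries held 5808 and 3635 control cells and 2628 and 4587 mutant cells, from total counts of 47390414 to 116863081 UMIs (unique molecular identifiers, each counting 1 captured molecule). Stromal-gate cells numbered 988 and 48 in the controls and 29 and 13 in the mutants. Bone-gate cells (osteoblast, osteocyte and bone progenitor gates together) numbered 304 and 46 against 2074 and 1293, and endothelial cells 29 and 539 against 43 and 843. In each pair the values are for libraries 1 and 2. All 10 stromal markers were present in each stromal sum, but their median level per cell was 357 and 318 per 10000 UMIs in the controls and 90.7 and 131 in the mutants. Mettl3 stood at 7.23 and 9.75 CPM in control bone cells and at 4.02 and 6.54 CPM in mutant ones, although 3′ tags can lie outside the deleted part. CPM gives a gene's UMIs relative to all UMIs summed over the cells of a gate, on the usual scale for count data. The fall was not confined to bone cells. Erythroid cells had 16.5 and 19.5 against 10.2 and 15.3 CPM. Endothelial cells had 23.9 and 19.4 against 10.9 and 19.1 CPM, from 4 and 89 against 3 and 172 UMIs. The difference in Mettl3 was not tested. Libraries shared 2 to 10 cell barcodes.

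The members lie on 7 chromosomes of the mm10 build in GENCODE M21. Igf1 (ENSMUSG00000020053) spans chr10:87858265-87937042 on the plus strand, and Igfbp5 (ENSMUSG00000026185) spans chr1:72857932-72874884 on the minus strand. Igfbp2 (chr1:72824503-72852474, plus strand) ends 5457 bases from the end of Igfbp5. Igfbp4 lies at chr11:99041244-99054392 (plus), Igfbp3 at chr11:7206086-7213923 (minus), Igfbp6 at chr15:102144362-102149511 (plus) and Igfbp7 at chr5:77349240-77408041 (minus). Igf2 lies at chr7:142650766-142666816 (minus), Igf1r at chr7:67952827-68233668 (plus) and Igf2r at chr17:12682406-12769664 (minus). Antisense genes overlap Igf1 (Igf1os), Igf2 (Igf2os), Igf2r (Airn) and Igfbp7 (Gm34648, with the coding gene Polr2b also on the other strand). No source used here says whether counting was stranded, so the split of reads between such partners is uncertain.

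The promoters of Igfbp5 and Igfbp4 are shown because both genes were high in control stroma but had unlike test results in bone cells. There Igfbp5 was lower in the mutants and Igfbp4 did not pass the test. Each run is the 250 bases upstream of the RefSeq start (GRCm38.p6, the assembly of mm10), 5′ to 3′ on the gene's strand, with motif matches in capitals. The Igfbp5 window is chr1:72874866-72875115 on the minus strand, and the Igfbp4 window is chr11:99040994-99041243 on the plus strand.
Igfbp5: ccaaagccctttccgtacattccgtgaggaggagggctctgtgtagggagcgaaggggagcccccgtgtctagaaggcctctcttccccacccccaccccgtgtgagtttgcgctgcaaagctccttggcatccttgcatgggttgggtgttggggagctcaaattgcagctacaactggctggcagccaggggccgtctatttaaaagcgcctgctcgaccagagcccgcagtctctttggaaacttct
Igfbp4: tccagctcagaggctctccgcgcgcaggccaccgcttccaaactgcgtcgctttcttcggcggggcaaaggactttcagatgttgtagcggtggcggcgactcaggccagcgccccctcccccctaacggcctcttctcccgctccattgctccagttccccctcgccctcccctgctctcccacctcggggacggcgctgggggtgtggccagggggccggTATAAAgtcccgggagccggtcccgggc
Motifs searched on both strands were the TATA box, searched as TATAAA, the CCAAT box under its own letters, and the GC box as GGGCGG. The Igfbp4 window held TATAAA 28 bases before the start, a motif present in 12.4% of 32851 RefSeq windows of this length. The Igfbp5 window held none of the 3 motifs as an exact match, and 19 of its bases lie in GENCODE exons. Variant forms of the motifs were not searched. CCAAT occurred in 33.8% of all windows and GGGCGG in 32.7%. GC content was 58.8% for Igfbp5 and 69.2% for Igfbp4. The RefSeq window of Igf1 lies within exons of longer GENCODE transcripts and is not shown.

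**Figure D1:**
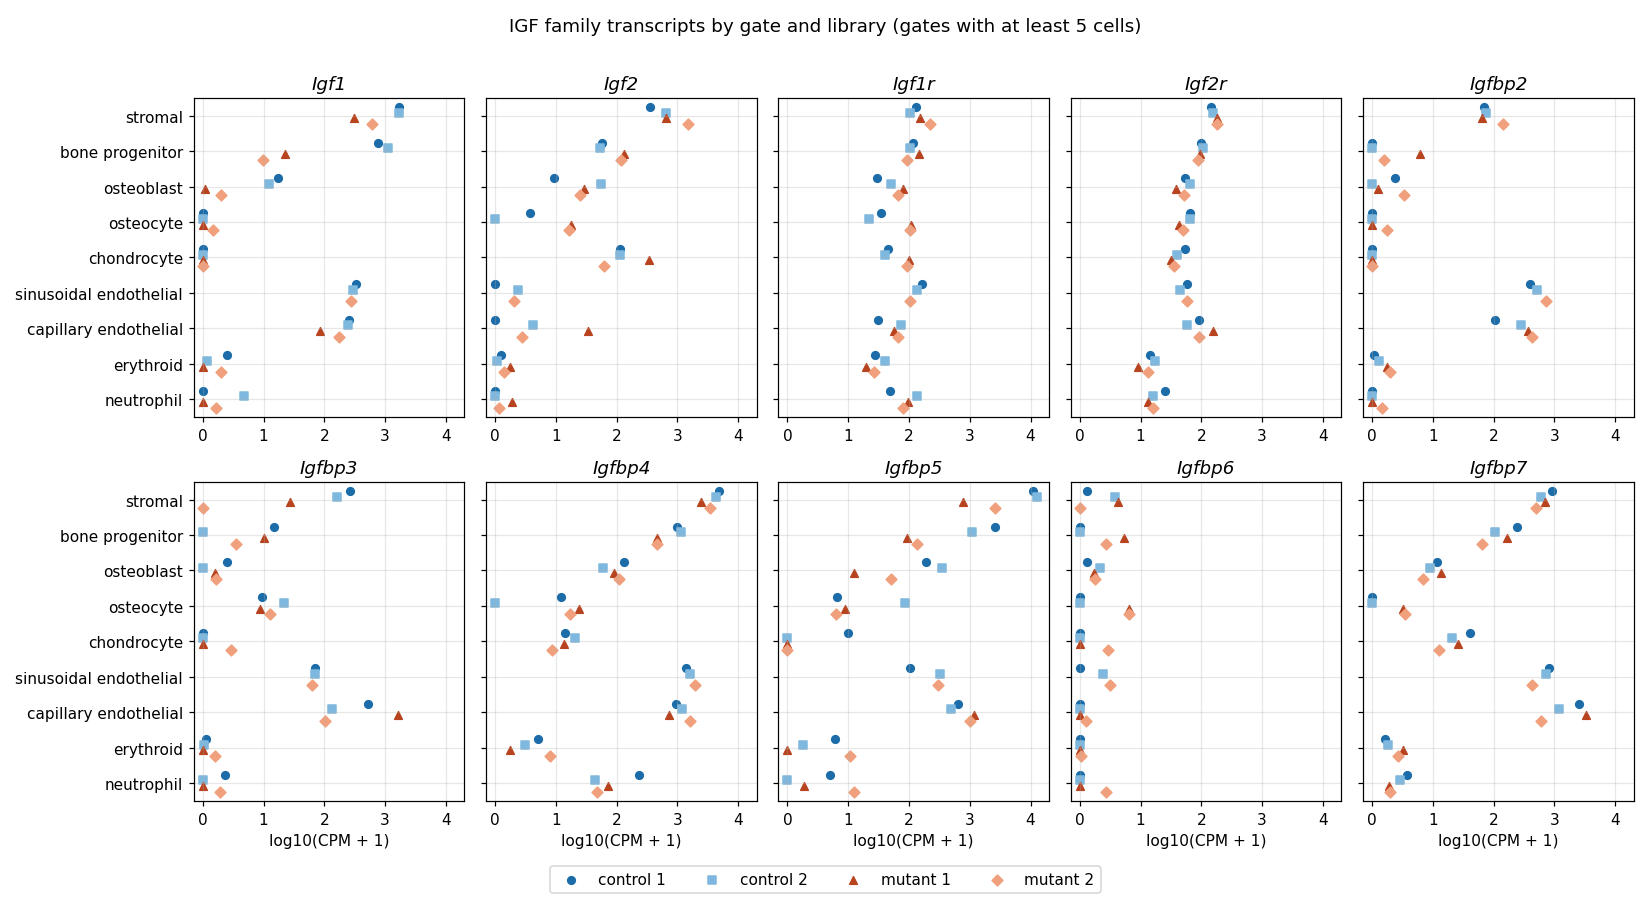
Level of each family member (one panel per gene) by cell gate and library, as log10(CPM + 1) on the horizontal axis, with 1 symbol per library and gates with at least 5 cells. In the controls Igf1, Igfbp4 and Igfbp5 were highest in the stromal gate and Igfbp2 in sinusoidal endothelium. Igf1 of osteoblasts lay lower in both mutant libraries than in both control libraries.

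In control marrow the stromal gate held the highest levels of both ligands among gates with at least 20 cells per control library. Igf1 was at 1671 CPM in control 1 and 1697 CPM in control 2. The mean over control libraries fell from 1684 ± 18.6 CPM (SD, n = 2) in stromal cells to 281 ± 9.5 CPM in endothelial cells and 56.9 ± 7.42 CPM in bone cells, each gap wider than the spread. Igf1 in erythroid cells, which should lack stromal transcripts, was 0.838 ± 0.927 CPM.

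Within the bone gates Igf1 was concentrated in the progenitor gate, defined by Col12a1, Postn, Aspn and like genes. It reached 756 and 1121 CPM there in the controls, against 16.4 and 11.2 CPM in osteoblasts and 0 UMIs in osteocytes. The 37 progenitor-gate cells of control 1 supplied 323 of the 421 Igf1 UMIs of its bone cells; control 2 had only 5 such cells, with 43 of 53. Chondrocytes had 0 Igf1 UMIs in every library, which allows up to 13.2, 14.7, 18.6 and 5.79 CPM (3 counts) in control 1, control 2, mutant 1 and mutant 2.

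Igf2, an imprinted gene, was at 354 and 649 CPM in control stromal cells. In control bone cells it was at 10.9 and 49.7 CPM, a spread that left bone (30.3 ± 27.4 CPM, SD, n = 2) and endothelium (39.6 ± 53.6 CPM) indistinguishable. Chondrocytes held Igf2 at 114 and 113 CPM in the controls and 335 and 61.8 CPM in the mutants. The bone progenitor gate held it at 56.2 and 52.1 CPM in the controls and 131 and 117 CPM in the mutants, and osteoblasts at 8.18 and 54.9 against 27.5 and 24 CPM.

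The receptors were spread more evenly. Igf1r was at 116 ± 17.5 CPM in control stromal cells and 115 ± 10.3 CPM in endothelial cells (SD, n = 2 each), which did not differ beyond the spread, with neutrophils at 90.7 ± 60.0 CPM. Bone cells followed at 41.6 ± 10.0 CPM and erythroid cells at 32.4 ± 8.78 CPM, again within their spread of each other. Igf2r was at 149.6 ± 9.89 CPM in stromal cells, above bone (60.9 ± 6.30 CPM) and endothelium (56.0 ± 13.6 CPM), which did not differ beyond the spread.

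The binding proteins divided between stroma and vessels. Igfbp5 was at 11011 and 12596 CPM in control stromal cells, and lower in bone (340.4 ± 13.5 CPM, SD, n = 2) and endothelium (329 ± 35.9 CPM), 2 gates within their spread of each other. Igfbp4 was at 4752 and 4242 CPM in stroma and at 1345 ± 241 CPM in endothelium, well above bone (135 ± 59.4 CPM) and neutrophils (137 ± 131 CPM).

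Igfbp2 had its highest control level in endothelium, at 244 and 457 CPM, followed by stroma at 68.8 and 72.7 CPM; control bone cells held 8 UMIs of it in one library and 0 in the other. Igfbp7 was at 1723 and 820.5 CPM in control endothelium and 918 and 601 CPM in stroma, ranges that overlap. Pericyte-gate cells, which wrap vessels and numbered 10 and 5 in the controls, held Igfbp7 at 3774 and 7001 CPM.

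Igfbp3 had its highest control level in the arterial gate. That gate held it at 4063, 3612, 2204 and 897 CPM in control 1, control 2, mutant 1 and mutant 2, although only 4, 1, 4 and 5 cells passed. Capillary cells of the controls ranged from 133 to 512 CPM. Sinusoidal cells of the controls had 68.9 and 69.5 CPM. Igfbp6 stayed at or under 5.54 CPM in the stromal, bone and chondrocyte gates of every library. It reached 1094 and 439.9 CPM in the fibroblast gate, which held 10 cells of control 1, 21 of mutant 1 and none of the other two libraries.

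Across control libraries, all 9 tested members were lower in bone than in stromal cells (edgeR quasi-likelihood test, library as block, Benjamini-Hochberg over 11308 genes), where 23.6% of all genes were called lower and 24.3% higher. The differences ranged from -5.77 (SE 0.32) for Igfbp3 to -0.49 (SE 0.21, adjusted p = 0.0433) for Igf2r on the log2 scale, with -4.05 (SE 0.24) for Igf1, -4.29 (SE 0.27) for Igfbp5 and -4.28 (SE 0.26) for Igfbp4. The calls of Igf1r and Igf2r were lost with DESeq2 (adjusted p = 0.256 and 0.400), and that of Igf2r in 4 of the 7 other settings, DESeq2 included, so that 7 to 9 members were called. In this fit, as in the endothelial, erythroid and class-by-genotype fits below, edgeR gave all genes of like abundance 1 shared spread, on which the small p-values rest. The mesenchyme, bone and osteoblast fits below had 1 residual degree of freedom, beside 10.2, 14.2 and 25.6 borrowed from other genes. Their p-values therefore also rest mostly on borrowed spread.

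Between endothelial and bone cells of all 4 libraries, 5 of 9 tested members were higher in endothelium and 1 lower, against 19.6% and 25.1% of 11673 genes (edgeR, library as block). Igfbp2 differed by 7.55 (SE 0.34, log2, adjusted p = 2.18e-07), Igfbp3 by 6.57 (SE 0.63), Igfbp7 by 5.32 (SE 0.24), Igf1 by 3.11 (SE 0.72, adjusted p = 0.00493) and Igfbp4 by 2.47 (SE 0.30). The Igf1 value pools genotypes that differed: endothelium was at 274 and 288 CPM and bone at 62.2 and 51.7 CPM in the controls, against 83.4 and 185 CPM and 3.32 and 1.97 CPM in the mutants. Igf2 was lower in endothelium by -2.73 (SE 1.01, adjusted p = 0.0485), a call lost in 5 of 7 other settings and in 2 of 4 fits that left out a library.

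Over all mesenchymal cells (stromal, bone and chondrocyte gates summed per library), 7 of the 10 members were lower in the mutants and 1 was higher, against 14.7% and 15.3% of 14032 genes tested (edgeR with a term for processing version). Igf1 was at 806 and 416 CPM in the controls and 5.49 and 5.01 CPM in the mutants, so the groups did not overlap, and the log2 difference was -6.49 (SE 0.24, adjusted p = 6.02e-08). Igfbp5 was at 5268 and 3064 CPM against 28.5 and 65.2 CPM, a difference of -6.23 (SE 0.41, adjusted p = 1.53e-06).

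For Igf1, Igfbp5 and Igfbp4 the stromal gate supplied a smaller share of the mesenchymal UMIs in both mutant libraries than in both controls. Its share of Igf1 was 96.0% and 92.0% in the controls and 40.1% and 61.6% in the mutants, so that in mutant 2 it was still the main source. For Igfbp5 its share was 96.7% and 92.6% against 19.5% and 19.9%, and for Igfbp4 96.0% and 93.9% against 11.4% and 11.1%. In such sums fewer stromal cells and less RNA per cell cannot be told apart.

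The other members lower in summed mesenchyme were Igfbp3 (124 and 37.2 CPM in controls, 2.96 and 2.61 CPM in mutants, log2 difference -4.41, SE 0.32), Igfbp2 (-3.44, SE 0.39), Igfbp7 (-3.04, SE 0.18), Igfbp4 (-3.01, SE 0.25) and Igf2 (-1.70, SE 0.19). Without control 1 the calls of Igfbp2 and Igfbp7 were lost (edgeR adjusted p = 0.0539 and 0.123). Igf1r was the member called higher, by 0.59 (SE 0.17, adjusted p = 0.0234), yet its CPM overlapped between genotypes (78.0 and 59.8 against 92.0 and 74.7). That call was lost in each of the 4 fits leaving out a library, with adjusted p from 0.0677 to 0.636, with DESeq2 (adjusted p = 0.0850) and without the version term (adjusted p = 0.178). Igf2r (-0.48, adjusted p = 0.0599) and Igfbp6 (2.26, adjusted p = 0.0519) did not pass.

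**Figure D2:**
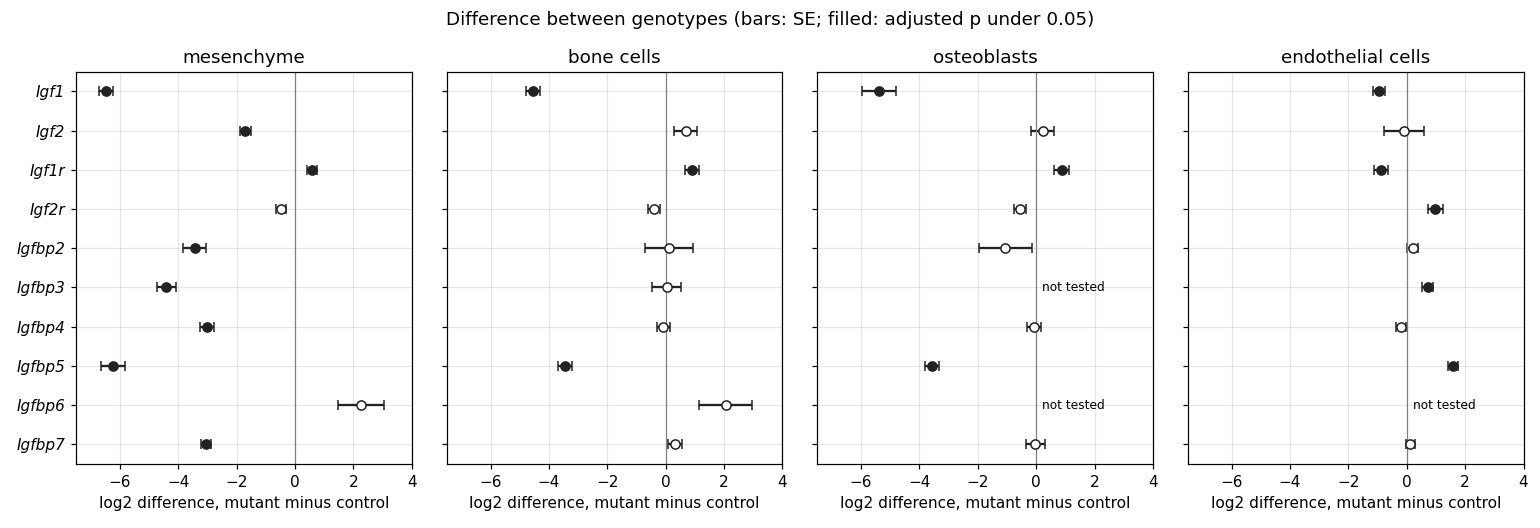
Log2 difference between genotypes (mutant minus control, horizontal axis) of each member in summed mesenchyme, bone cells, osteoblasts and endothelial cells, with edgeR standard errors as bars and filled points where the adjusted p was under 0.05. Igf1 and Igfbp5 lie far below 0 in the first 3 panels, whereas Igfbp5 lies at 1.58 in endothelial cells.

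Within bone cells alone, 2 of the 10 members were lower in the mutants and 1 was higher, where 8.67% and 11.6% of 13029 genes were called in those directions. Igf1 was at 62.2 and 51.7 CPM in the controls and 3.32 and 1.97 CPM in the mutants. Both mutant libraries lay below both controls, by -4.55 (SE 0.25) on the log2 scale (edgeR adjusted p = 2.54e-08), and leaving out each library in turn gave -5.12 to -4.16 with adjusted p of at most 0.0272.

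Igfbp5 in bone cells was at 331 and 349.9 CPM in the controls and 23.2 and 53.5 CPM in the mutants. The difference was -3.43 (SE 0.24, edgeR adjusted p = 2.31e-07) and stayed between -3.91 and -2.92 without each library, with adjusted p of at most 0.0487. Within the libraries processed with Cell Ranger 5.0.1 the difference in log2(CPM + 1) was -3.78, and within those processed with 6.1.2 it was -2.69; for Igf1 these values were -3.87 and -4.15.

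Igf1r in bone cells was at 34.5 and 48.7 CPM in the controls and 91.6 and 73.6 CPM in the mutants, with no overlap. It rose by 0.92 (SE 0.24, edgeR adjusted p = 0.0132), but the call was lost without control 1, without control 2 and without mutant 1 (adjusted p = 0.354, 0.122 and 0.308), and without the version term (adjusted p = 0.0767). In the osteocyte gate, which held 18 and 5 control cells, Igf1r was at 33.6 and 20.98 CPM in the controls and 105 and 102 CPM in the mutants, also without overlap. The osteoblast, osteocyte and progenitor gates held 249, 18 and 37 cells in control 1 and 36, 5 and 5 in control 2. They held 1274, 374 and 426 cells in mutant 1 and 847, 262 and 184 in mutant 2. The part of this mix in the differences of bone cells was not tested.

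The remaining members did not pass the test in bone cells. Igfbp4 was at 177, 92.6, 137 and 139.8 CPM in control 1, control 2, mutant 1 and mutant 2, a log2 difference of -0.08 (SE 0.21, adjusted p = 0.843). Igf2 differed by 0.69 (SE 0.40, adjusted p = 0.257) in the main edgeR fit and passed with 3 other settings, among them RLE scaling (adjusted p = 0.0370). Igf2r was at 56.4 and 65.3 against 46.9 and 55.8 CPM (adjusted p = 0.185), and Igfbp7 at 24.8 and 10.7 against 34.7 and 13 CPM (adjusted p = 0.388). Igfbp2, Igfbp3 and Igfbp6 stayed at or under 2.80 CPM in bone cells of every library (adjusted p = 0.939, 0.975 and 0.125).

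Markers of other cells were also summed in bone cells, and they did not all differ in the same direction. Summed stromal markers in bone cells were at 333 and 157 CPM in the controls and 208 and 174 CPM in the mutants, so the groups overlapped; 4 of 10 were at 0 in control 2 and none in the other libraries. Fibroblast markers were at 1398 and 1639 against 448 and 515 CPM; 3 and 4 of the 8 were at 0 in the controls. In osteoblasts that sum was carried by Lum and Gsn, with Lum at 1004 and 1302 CPM in the controls and 278 and 284 CPM in the mutants, while Pi16, Clec3b, Cd34 and Ly6c1 had 0 UMIs in both controls and at most 3.22 CPM in the mutants. Mfap5, of the same list, went the other way in bone cells, at 0.295 and 0.975 against 7.96 and 1.56 CPM. Bone sums held 6773333 and 1025877 UMIs in the controls against 41822702 and 26912352 in the mutants. Zeros in the smaller control sums therefore do not show lower levels there. Neutrophil markers were at 7.23 and 10.7 against 38.0 and 169 CPM. The part of these cells in the differences of Igf1 and Igfbp5 was not tested.

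The osteoblast gate alone gave the same 3 calls among 8 tested members, where 9.5% of 12372 genes were lower and 12.6% higher. Igf1 was at 16.4 and 11.2 CPM in the controls, from 98 and 10 UMIs, and at 0.0665 (exact Poisson interval 0.00806 to 0.240) and 0.988 (0.595 to 1.54) CPM in the mutants, from 2 and 19 UMIs. The log2 difference was -5.39 (SE 0.59, edgeR adjusted p = 1.78e-07). Igfbp5 was at 191 and 347 against 11.6 and 48.8 CPM, a difference of -3.57 (SE 0.24, edgeR adjusted p = 1.91e-11). Igf1r was higher by 0.87 (adjusted p = 0.0119), a call lost with DESeq2 (adjusted p = 0.117), without the version term (adjusted p = 0.109) and without control 1, control 2 or mutant 1. The other 5 members had adjusted p of at least 0.0627. Leaving out either control library ended the calls of Igf1 and Igfbp5, with adjusted p from 0.0720 to 0.220, and left the differences between -5.32 and -2.92. Stromal markers summed to 204 and 94.2 CPM in control osteoblasts and to at most 108 CPM in mutant ones, so the groups overlapped. Bone progenitor markers summed to 930 and 1295 CPM in control osteoblasts and to 3241 and 2798 CPM in mutant ones, without overlap. Osteoblast markers summed to 39873 and 76530 against 32460 and 29373 CPM, also without overlap. The part of these markers in the result was not tested.

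In the progenitor gate, too small in control 2 for a test, Igf1 was at 756 and 1121 CPM in the controls and 21.6 and 8.91 CPM in the mutants. Igfbp5 was at 2566 and 1069 against 91.3 and 134 CPM, and Igfbp4 at 962 and 1121 against 467 and 453 CPM. For these 3 genes both mutant libraries were below both controls. Stromal markers in this gate also differed, at 2358 and 1746 CPM against 796 and 675 CPM, with 5 of 10 at 0 in control 2. Fibroblast markers summed to 1632 and 1486 against 464 and 591 CPM. In the controls 5 and 6 of 8 were at 0, in the mutants none. That fall was carried by Lum, at 1320 and 1355 against 157 and 279 CPM. Gsn overlapped (309 and 130 against 218 and 297 CPM), as did Clec3b (2.34 and 0 against 12.3 and 0.278 CPM). Mfap5 was at 0 in both controls and at 51.1 and 11.1 CPM in the mutants. Pi16, Dpt, Cd34 and Ly6c1 likewise had 0 UMIs in both controls and some in both mutants. The sums of this gate held 427116 and 38368 UMIs in the controls against 6344407 and 3593210 in the mutants. Zeros in the smaller control sums therefore do not show lower levels there. The part of these markers in the result was not tested.

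Shares of cells with a UMI were compared at matched depth. After thinning each cell to 1000 UMIs, Igfbp5 was found in 16.1% and 17.4% of control bone cells and in 2.17% and 4.41% of mutant ones. The same shares in erythroid cells, the background, were 0.915%, 0.0370%, 0% and 1.91%; bone and erythroid cells of control 1 had median depths of 21490 and 21928 UMIs. Unthinned shares of Igfbp5 in bone cells were 45.4%, 54.3%, 11.3% and 20.4%.

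Igf1 was found in 4.93% and 6.52% of control bone cells and in 0.434% (exact 95% binomial interval 0.199 to 0.822%) and 0.541% (0.218 to 1.11%) of mutant ones. Both mutant intervals overlapped those of erythroid cells of the same library. These were 0 to 3.93% from 92 cells in mutant 1 and 0.0272 to 0.808% in mutant 2. The shares therefore could not separate Igf1 of pooled bone cells from background in either library. The progenitor gate alone held 137 Igf1 UMIs in mutant 1 and 32 in mutant 2. Its Igf1 level, given above, exceeded that of both ligands together in erythroid cells (0.728 and 1.36 CPM). In mutant 1 osteoblasts 0 of 1274 thinned cells held Igf1, which allows a share of up to 0.235%. With 2 libraries against 2 an exact two-sided permutation test cannot go below p = 0.333, so these shares are a description. Intervals and floors cover counting error only.

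The stromal gate held 29 of 2628 kept cells in mutant 1 and 13 of 4587 in mutant 2, so mutant values are given without a test. Control 2 also had few, at 48 of 3635, against 988 of 5808 in control 1. Cells within 2-fold below the gate threshold numbered 15 and 42 in the controls and 67 and 22 in the mutants. Whether the mutants had fewer stromal cells was not tested. Igf1 was at 307 CPM (exact Poisson interval 248 to 376) in mutant 1 and 607 CPM (485 to 751) in mutant 2, both below the controls. Igfbp5 was at 776 (679.7 to 882) and 2558 (2299.99 to 2837) CPM, again below both controls, while Igf2 was at 650.3 and 1479 CPM, at or above them. Igf1r was at 149 and 222 CPM, beside 128 and 104 CPM in the controls. Igfbp4 was at 2433 and 3373 CPM against 4752 and 4242 CPM. The lower stromal marker level of these cells, given above, moved with these values, and its part was not tested.

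In endothelial cells, which Prx1-cre does not target, 2 of 9 tested members were lower in the mutants and 3 higher, where 3.03% and 2.2% of 10628 genes were called (edgeR). Igfbp5 was at 304 and 355 CPM in the controls and 1102 and 939 CPM in the mutants, with no overlap and a log2 difference of 1.58 (SE 0.18, adjusted p = 3.92e-16). It lost its call only without control 2 (adjusted p = 0.104). Igf1 was at 274 and 288 against 83.4 and 185 CPM, a difference of -0.95 (SE 0.21, adjusted p = 2.00e-04). That call was lost with DESeq2 (adjusted p = 0.201), without the version term (adjusted p = 0.363) and without control 1, control 2 or mutant 1 (adjusted p = 0.178, 0.863 and 0.771), and the difference ran from -1.80 to -0.61 without each library.

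The other endothelial calls were lost in several settings too. Igf1r was lower (-0.88, adjusted p = 0.00954) and Igf2r higher (0.98, adjusted p = 0.00288) with edgeR. Neither was called with DESeq2 or without the version term (adjusted p = 0.321 and 0.310), and leaving out a library ended the call of Igf1r in 4 of 4 fits and that of Igf2r in 3 of 4, all but that without mutant 2. Igfbp3 was at 584 and 94.2 against 1584 and 102 CPM; its edgeR difference of 0.71 became -1.49 without mutant 1, and DESeq2 (adjusted p = 0.639), the fit without the version term and the fit leaving out control 2 (adjusted p = 0.978) did not call it. Igfbp7, at 1723 and 820.5 against 3045 and 580.3 CPM, did not pass (0.13, adjusted p = 0.999), but was called higher without mutant 2 (1.24) and lower without mutant 1 (-1.09). Igf2 was at 77.5 and 1.74 against 47.1 and 2.55 CPM, Igfbp2 at 244 and 457 against 377 and 449.8 CPM and Igfbp4 at 1175 and 1515 against 797 and 1618 CPM, none past the threshold, and Igfbp6 was too low to test.

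The mix of endothelial cells differed between libraries: 443 of 539 cells passed the sinusoidal gate in control 2 and 99 of 843 in mutant 2, while the capillary gate held 95 and 739. Within sinusoidal cells of these 2 libraries Igf1 was at 300.2 and 276 CPM and Igfbp5 at 323 and 303 CPM. Within capillary cells Igf1 was at 245 and 176 CPM and Igfbp5 at 481 and 1020.4 CPM. Sinusoidal cells of mutant 1 numbered only 2. Summed stromal markers in endothelial cells were at 692 and 481 CPM in the controls and 297 and 283 CPM in the mutants, with 4, 0, 4 and 4 of 10 at 0. Pericyte markers were at 1193 and 1406 against 369.7 and 525 CPM (6, 3, 5 and 4 of 8 at 0), and fibroblast markers at 561 and 237 against 1464 and 806 CPM (6, 3, 5 and 1 of 8 at 0). The part of cell mix and of these cells in the endothelial differences was not tested.

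A direct test of the bone difference minus the endothelial difference called 3 members lower and 1 higher, where 1.81% and 1.88% of 12901 genes were called (edgeR interaction, library as block). The values were -5.08 (SE 0.39, adjusted p = 4.42e-34) for Igfbp5 and -3.64 (SE 0.40, adjusted p = 3.31e-16) for Igf1. Igf2r (-1.55) and Igf1r (1.55) passed as well, but not with DESeq2 (adjusted p = 0.328 and 0.183) or with cells of 2 compartments kept (adjusted p = 0.122 and 0.0501).

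Erythroid cells and neutrophils were tested as well. Erythroid Igfbp5 was at 5.08, 0.798, 0 and 9.63 CPM in control 1, control 2, mutant 1 and mutant 2 and was called higher in the mutants with Igfbp4 (2 of 8 tested members, where 5.39% of 12369 genes were called higher and 0.703% lower), but the signs of both turned without mutant 2, and that of Igfbp5 with DESeq2; neither was called without the version term (adjusted p = 0.714 and 0.628) or without control 2. Barcodes of 10 to 100 UMIs, which carry free RNA, held Igfbp5 at 748, 25.8 and 62.2 CPM in control 1, control 2 and mutant 2. In neutrophils, where 0.234% of 6410 genes were called higher and 0% lower, the 3 tested members gave adjusted p of 0.553 (Igf1r, 0.62), 0.955 (Igf2r, 0.06) and 0.749 (Igfbp4, -0.30). Without control 2, Igf1r was called higher (1.53) and Igfbp4 lower (-1.31).

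Other genes of the pathway were followed in lists. Of 27 genes of IGF receptor signalling, 3 were higher and 1 lower in mutant bone cells, shares near or below the 11.6% and 8.67% of all genes called there, with a list median of 0.08 beside 0.04 over all genes. Irs1, an adaptor of the receptor, was at 27.0 and 28.3 CPM in the controls and 58.9 and 45.0 CPM in the mutants (0.81, adjusted p = 0.0204). Foxo1, a transcription factor held out of the nucleus by AKT, rose by 0.85 and Eif4ebp1, a translation inhibitor, by 0.69, while Pik3r2, a PI3 kinase regulatory subunit, fell by 0.69.

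Of 12 tested genes that govern IGF availability, 5 were higher and 2 lower in bone cells (median 0.31), again beside 11.6% and 8.67% of all genes. Stc2, which inhibits pappalysins, was at 8.27 and 2.92 against 17.8 and 16.8 CPM (1.25, adjusted p = 0.00904). Mmp14, Ctsd and Htra1 rose by 0.58 to 0.64, and Adam12 and Plat fell by 0.64 and 1.65. Pappa, which cuts IGFBP4, was lower in summed mesenchyme (418 and 193 against 57.8 and 14.9 CPM, -2.94, SE 0.24) and not called in bone cells.

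Growth hormone is known to raise Igf1, a link not tested here. Of 8 genes of its axis, 4 were lower in mutant mesenchyme (median -0.71 beside -0.000618 over all genes), where 14.7% of all genes were lower. Ghr, the growth hormone receptor, was at 139 and 96.4 against 27.5 and 29.2 CPM (-1.73, adjusted p = 5.93e-05), with Stat5b (-1.80), Stat5a (-1.25) and Socs3 (-0.85). In controls alone, 5 of 7 tested genes of the axis were lower in bone than in stromal cells and 1 was higher (median -1.72). There 23.6% and 24.3% of all genes were called. The part of cell mix in the mesenchyme values was not tested. Between genotypes in bone cells, 1 of the 8 passed, Cish, higher by 1.91 in the mutants. Of the 14 and 15 tested response genes of IGF1 and FOXO in bone and in mesenchyme, Ccnd1 was the 1 called in bone cells (44.0 and 16.6 against 126 and 104 CPM, 1.77); in mesenchyme 2 were higher and 4 lower, beside 15.3% and 14.7% of all genes.

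Among imprinted growth genes, 10 of 13 tested were lower in mesenchyme (median -1.66) and none higher, where 14.7% and 15.3% of all genes were called. In controls alone, 10 of 13 were lower in bone than in stromal cells and 2 higher (median -2.25), beside 23.6% and 24.3% of all genes. The part of cell mix in the mesenchyme values was not tested. Between genotypes in bone cells, 3 of 12 were lower and 2 higher in the mutants (median -0.37), beside 8.67% and 11.6% of all genes. H19, a noncoding RNA 72622 bases from Igf2, was at 206 and 154 against 20.5 and 11.4 CPM in mesenchyme (-3.21, SE 0.21), while in bone cells it was at 4.28 and 17.5 against 12.8 and 8.29 CPM (0.44, adjusted p = 0.549). Dcn, a matrix proteoglycan, fell by 2.71 and Peg3 fell by 1.59 in bone cells, and Mest fell by 1.02. Igf2bp3, which binds Igf2 RNA, was higher in bone cells by 1.14 (adjusted p = 0.00616), the 1 of 3 such genes that passed.

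**Figure D3:**
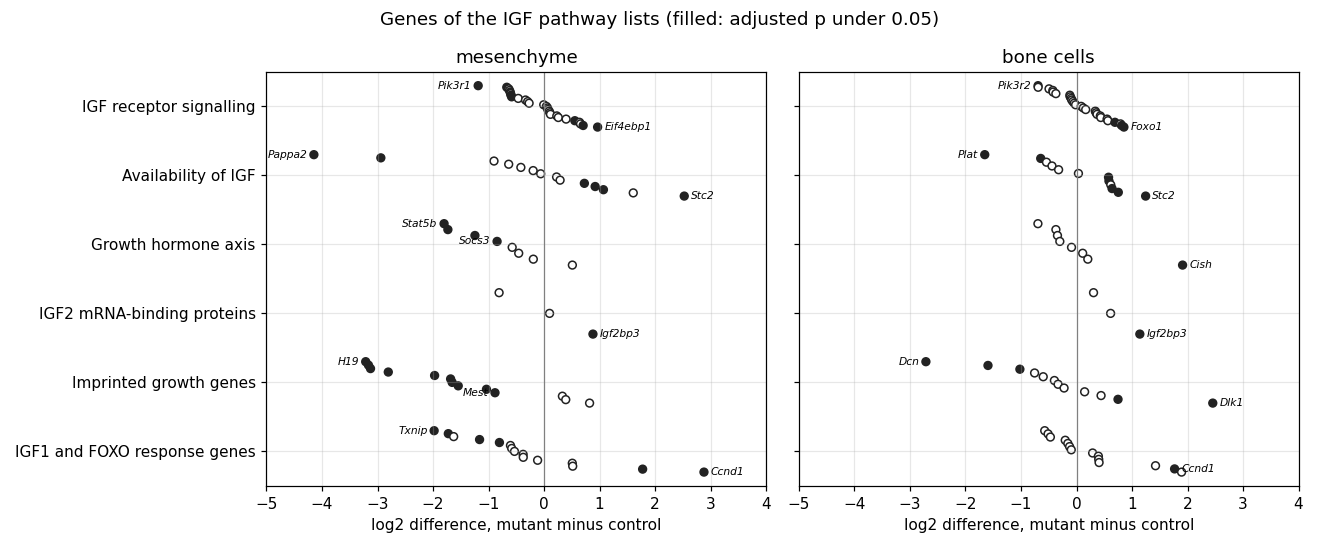
Log2 difference between genotypes (horizontal axis, mutant minus control) of the tested genes of 6 pathway lists in summed mesenchyme and in bone cells, with filled points where the edgeR adjusted p was under 0.05 and names at the outermost called genes. Imprinted genes lie mostly below 0 in mesenchyme and on both sides of 0 in bone cells.

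Genes most alike in pattern were ranked by Pearson r of log2(CPM + 1) over 33 sums of a gate in a library with at least 20 cells, which share libraries and depth. For Igf1 they were Fmo1 (0.95), Fbln5 (0.94) and Lamb1 (0.93), and for Igfbp5 Fam13c (0.93), Thsd7a (0.92) and Olfml2a (0.92). Igfbp7 ranked with the basement membrane genes Nid2 (0.97), Nid1 (0.97) and Lamb1 (0.96), and Igfbp3 with Tril (0.96). Between members, Igf1 and Igfbp5 had r of 0.92, Igf1 and Igf2 0.61, and Igf1 and Igf1r 0.50.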

How the data were processed

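Per the file headers, the authors deposited raw UMI counts, whole numbers for each gene and barcode. The submitters' processing notes give mm10 and Cell Ranger, in version 5.0.1 (control 1, mutant 1) or 6.1.2 (control 2, mutant 2), whereas 3 headers (both controls, mutant 2) name Cell Ranger 4. No source used here names the annotation behind the counts. Mutant 1 was deposited as 3352 called barcodes of at least 501 UMIs, the others with all barcodes, so free RNA could not be measured in mutant 1.

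Kept cells had 1000 UMIs or more, 500 genes or more and no more than 10% of UMIs from mitochondrial genes. A cell entered a gate with at least 3 of its markers and a summed marker level of at least 20 per 10000 UMIs; cells passing gates of 2 compartments were set aside, and no doublet caller was used in the main analysis. No member was a gate marker. The gate thresholds were chosen with marker levels in view, and the members and gene lists were chosen with earlier results of these data known. Counts were summed per gate and library, CPM computed, and all genes were fitted with the quasi-likelihood test of edgeR 4.0.16 (R 4.3.3; TMM scaling, filterByExpr, Benjamini-Hochberg, threshold 0.05) with processing version and genotype, or library as a block. UMI counts at the 3′ end need no length correction. DESeq2 1.42.0 was an alternative. Tests were run only where each library had at least 20 cells of a gate, and the scripts were tested on simulated data.

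All 10 members could be named in every gate. From each pathway list, genes past the threshold in mesenchyme or bone cells with the smallest adjusted p, up to 6 per list, could be named, and the 3 genes most alike to each member that reached 50 CPM; H19 in bone cells and Pappa were named beyond this after their values were seen. A gene of the lists that the rule allows is not reported here. Samples were grouped by the genotype in their labels. Alternatives changed the test, scaling, gene filter, version term, cell filter (2000 UMIs), gate level, doublet removal (Scrublet in scanpy 1.11.5, 0.8% per 1000 cells) and thinning, or left out 1 library; keeping cells of 2 compartments was added after seeing the data.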

Additional observations from a re-analysis of the deposited data

Results flagged for a closer look

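For 4 members the genotype difference in bone cells differed from that in endothelial cells by the edgeR interaction test. The bone difference minus the endothelial difference (log2) was -5.08 for Igfbp5, which was lower in bone cells and higher in endothelial cells of the mutants. It was -3.64 for Igf1, which was lower in both. It was 1.55 for Igf1r, higher in bone and lower in endothelial cells, and -1.55 for Igf2r. The calls of Igf1r and Igf2r were lost without control 2 (adjusted p = 0.144 and 0.498) and without mutant 1 (adjusted p = 0.132 and 0.111). Igf1r was also lost without control 1 (adjusted p = 0.0562).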

How the results depend on the processing

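No paired analysis was possible by replicate number because the labels share none between genotypes; the version term of the genotype fits, with 1 control and 1 mutant library per Cell Ranger version, already compares libraries within a version. Fits that left out a library carry no version term, and bone against stromal cells in controls allowed none, since no residual degrees of freedom remain. Control gates of 29 to 48 cells limit precision.

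Counts of members called higher without each library ranged from 0 to 0 in mesenchyme (1 with all), 0 to 1 in bone cells, 0 to 1 in osteoblasts, 0 to 4 in endothelial cells, 0 to 3 in erythroid cells, 0 to 1 in neutrophils and 0 to 1 in the interaction; counts called lower ranged from 0 to 2 in osteoblasts, 0 to 2 in endothelial cells, 0 to 1 in neutrophils and 0 to 1 between endothelial and bone cells. With DESeq2, members called higher were 0 in mesenchyme, 0 in osteoblasts, 1 in endothelial cells, 0 in erythroid cells and 0 in the interaction, and members called lower 0 in endothelial cells and 0 between endothelial and bone cells. With RLE scaling, 2 were higher in mesenchyme, 2 in bone cells, and 0 lower between endothelial and bone cells. Without a filter on low counts, 2 were higher in mesenchyme, 2 in bone cells and 1 in erythroid cells. Without the version term, 0 were higher in mesenchyme, 0 in bone cells, 0 in osteoblasts, 1 in endothelial cells and 0 in erythroid cells, and 0 lower in endothelial cells. With doublets removed, 2 were higher in bone cells and 0 lower between endothelial and bone cells. With the gate level doubled, or cells of 2 compartments kept, 0 were lower between endothelial and bone cells, and in the latter 0 were higher in the interaction.

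Leaving out each library turned the sign of some differences (log2). Their ranges in bone cells were -0.44 to 1.64 (Igf2), -0.54 to 0.50 (Igfbp4), -0.18 to 0.40 (Igfbp3) and -0.89 to 1.13 (Igfbp7). In osteoblasts they were -1.15 to 1.48 (Igf2), -0.33 to 7.33 (Igfbp2), -0.61 to 0.67 (Igfbp4) and -1.01 to 0.32 (Igfbp7). In endothelial cells they were -3.03 to 3.25 (Igf2), -0.15 to 0.72 (Igfbp2), -0.81 to 0.26 (Igfbp4), -1.49 to 3.11 (Igfbp3) and -1.09 to 1.24 (Igfbp7), the last 2 lowest without mutant 1. In erythroid cells they were -8.73 to 2.34 (Igf1), -1.60 to 1.53 (Igfbp4) and -10.54 to 3.26 (Igfbp5), each lowest without mutant 2. In neutrophils they were -0.098 to 1.53 (Igf1r), -1.31 to 0.90 (Igfbp4) and -0.10 to 0.39 (Igf2r), and between endothelial and bone cells -0.55 to 0.22 (Igf2r) and -0.53 to 0.10 (Igf1r). In the interaction they were -2.56 to 4.90 (Igf2), -0.85 to 7.50 (Igfbp2), -0.39 to 0.29 (Igfbp7), -1.77 to 1.85 (Igfbp3) and -0.61 to 0.87 (Igfbp4), and Igf2 was also -2.47 without mutant 2.

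Other settings turned signs too. Without the version term Igfbp3 was -0.038 in bone cells, Igf2 -0.00032 in osteoblasts and Igf1 -0.025 in erythroid cells. With the gate level doubled, bone cells gave -0.80 (Igfbp2), 0.043 (Igfbp4) and -0.093 (Igfbp7), osteoblasts 0.025 (Igfbp4) and 0.048 (Igfbp7), and the interaction 0.15 (Igfbp3). With cells of 2 compartments kept, bone cells gave 0.047 (Igfbp4) and -0.88 (Igfbp7), osteoblasts 0.015 (Igfbp4) and 0.023 (Igfbp7), endothelial cells 0.13 (Igf2), and the interaction 0.060 (Igfbp2) and 0.024 (Igfbp3). Without a filter on low counts, osteoblasts gave 0.026 (Igfbp7), and the interaction 0.030 (Igfbp3) and 0.016 (Igfbp7). With doublets removed, Igfbp7 was 0.32 in osteoblasts, Igf2r -0.0018 in neutrophils and Igfbp2 0.45 in the interaction. With at least 2000 UMIs per cell, Igf2 was 0.46 in endothelial cells and -1.14 in the interaction. With DESeq2 erythroid Igfbp5 was -0.52, and with RLE scaling Igfbp3 was 0.031 in the interaction. The cause was not tested. In all, 65 alternative values turned sign, 687 kept direction and side of the threshold, and with direction kept 69 lost and 12 gained a call.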

Other observations

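In endothelial cells, 2 of 7 tested genes of the growth hormone axis were lower in the mutants, where 3.03% of all genes were called lower and 2.2% higher. The endothelial genes named here were chosen after their values were seen, and their small p-values rest on the shared spread described above. No alternative setting is given for them. With DESeq2, 45 genes were called higher and 71 lower in endothelial cells, against 234 and 322 with edgeR. The mix of endothelial cells and the fibroblast markers also differed between libraries, as given above, and their part was not tested. Socs2, an inhibitor of growth hormone signalling, was at 369.7 and 339 CPM in the controls and 94.2 and 92.0 CPM in the mutants (edgeR log2 difference -1.91, SE 0.21, adjusted p = 1.17e-17). Jak2, the kinase bound to the growth hormone receptor, was at 125 and 99.8 against 58.0 and 54.6 CPM (-0.93, adjusted p = 0.00542). Insr, the insulin receptor, was at 256 and 387 against 210.2 and 204 CPM (-0.71, adjusted p = 0.00831), the 1 gene called of 25 tested for IGF receptor signalling. Of 10 tested genes of IGF availability, 4 were higher and 2 lower: Mmp2, a matrix metalloproteinase, was at 0 and 6.1 against 47.1 and 75.5 CPM, and Stc1, an inhibitor of the pappalysin proteases, at 161 and 243 against 138 and 41.9 CPM (edgeR log2 differences 3.67 and -1.84, adjusted p = 1.61e-19 and 6.22e-13).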
